A study of Homo sapiens with 8 samples.

Results

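Cells carrying the control hairpin shGFP were compared with cells carrying the other control hairpin, shScr, in A375P, a human melanoma cell line. The comparison rests on 4 of the series' 8 arrays, the 2 from shGFP cells and the 2 whose titles call them shRNA-control and whose source names call them shScr. The other 4 arrays come from cells with a hairpin against PGC1a, numbered 65 or 66, with 2 arrays for each, and were used to estimate the spread and to see where they lie for the genes that differ between the controls. All 4 groups are the same cell line, made stable with a lentiviral short hairpin RNA. They were selected in puromycin for 48 h and harvested 48 h after that selection, so the controls share these procedures. Each group is 1 hairpin in 1 cell line, so a hairpin cannot be told apart from its own infection, selection and culture. Nothing in the labels tells if the pair of arrays for a hairpin comes from separate cultures; the p-values therefore reflect the spread of these samples alone, which may be technical.

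A short hairpin RNA is cut by the enzyme Dicer and loaded into Argonaute proteins, which then silence transcripts that pair with its guide strand. A control hairpin passes through the same steps with a guide chosen to have no intended human target, and shGFP is named for green fluorescent protein, a jellyfish protein that the human genome does not encode. Guide strands can also lower transcripts that pair with their seed alone, which is why knockdown studies often use more than 1 control. PGC1a, the product of PPARGC1A, is a coactivator of genes for mitochondrial biogenesis and respiration, and in melanoma it is known to lie downstream of the lineage factor MITF.

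Every array gave values for 22277 probe sets, and the median signal ran from 137 to 142 over the 8 arrays. Signals are intensities on a linear scale, and precision is limited by the number of arrays. PPARGC1A read 559.7 and 543 with shGFP, 570.2 and 551 with shScr, 126 and 144 with hairpin 65 and 114 and 115 with hairpin 66. The control hairpins overlapped for it (log2 difference -0.02, adjusted p = 0.891), and the PGC1a hairpin arrays were the lowest. Melanocyte markers ranged widely. Means over the 8 arrays were 6169 for MITF, 3876 for SOX10, 3265 for TYR, 3195 for S100B and 2671 for EDNRB. PMEL read 755, PAX3 140, TYRP1 70.1 and MLANA, a melanocyte antigen, 31.3. Epithelial CDH1, EPCAM and KRT19 read 17.0, 17.2 and 21.5, but KRT8 read 89.5, and 15 epithelial markers had a median of 44.4. The leukocyte marker PTPRC read 19.8, and 13 blood and endothelial markers had a median of 33.7. The lowest value in the deposited table is 9.17 and none is 0. For the ACTB control probe sets, the 3′ signal minus the 5′ signal, a measure of RNA integrity, was 1.97 and 2.34 on the log2 scale with shGFP, 2.32 and 2.12 with shScr and 2.41 to 2.65 in the PGC1a hairpin arrays, so the controls overlapped.

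Of 11963 genes, each read by its probe set with the highest mean signal, 939 (7.85%) differed between the control hairpins at an adjusted p under 0.05 in limma's moderated test. Of these, 526 (4.40%) were higher and 413 (3.45%) lower in shGFP. The typical difference was small: the median absolute log2 difference was 0.44 among the called genes, against a median standard error of 0.08, and 0.10 over all genes. At 1.5-fold or more, 156 (1.30%) were called higher and 118 (0.986%) lower; at 2-fold or more these were 31 and 27. The 2 arrays of one control did not overlap those of the other for 6732 genes (56.3%), a count that involves no test. Without a threshold on p, 290 genes differed by at least 1.5-fold between the controls, against 4 between hairpins 65 and 66, where no gene was called by limma (849 at an unadjusted p under 0.05) and the median absolute difference was 0.07. Leaving out 1 control array cut the number of calls in each of the 4 such fits. None of the 939 genes changed sign in those fits. Where the control arrays of a gene do not overlap, leaving out 1 cannot change its sign, so this adds no support.

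Distances between single arrays were ordered by hairpin. The median absolute log2 difference was 0.0686 to 0.0945 between the 2 arrays of a hairpin and 0.0855 to 0.1030 between an array of hairpin 65 and an array of hairpin 66. It was 0.1200 to 0.1252 for the 4 pairs of a shGFP and a shScr array, in which 55 to 67 genes were 2-fold apart. The shScr arrays lay 0.1395 to 0.1483 from the PGC1a hairpin arrays, and the shGFP arrays 0.1571 to 0.1703, with 140 to 158 and 241 to 266 genes at least 2-fold apart. These ranges did not overlap from the control pairs upward, and shGFP was the farther control from both PGC1a hairpins.

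**Figure D1:**
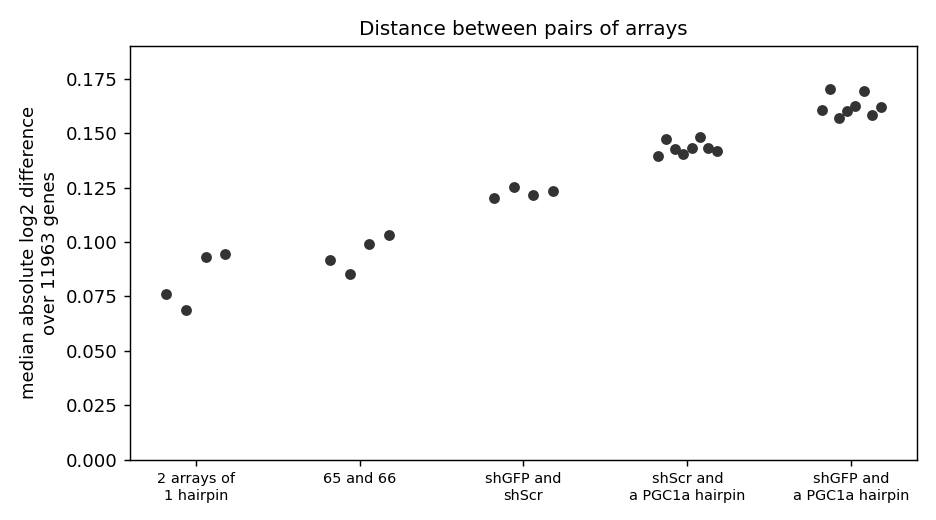
Each point is 1 pair of arrays, and its height is the median absolute log2 difference over 11963 genes, grouped by the hairpins of the pair. The 4 shGFP and shScr pairs sit at 0.1200 to 0.1252, above all pairs within an arm and below all pairs that cross to a PGC1a hairpin.

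The largest difference was in DKK1, a secreted antagonist of Wnt signalling. It read 383 and 346 with shGFP, 42.4 and 48.3 with shScr, 27.1 and 18.7 with hairpin 65 and 24.0 and 27.6 with hairpin 66. Both shGFP arrays stood far above the other 6, at 8.05-fold over shScr (log2 difference 3.01, SE 0.17, adjusted p = 2.11e-04), and the PGC1a hairpin arrays were lower than both controls (log2 -0.91 against shScr, adjusted p = 0.00468), at signals under the 33.7 of the blood and endothelial markers. Among the other large rises were SLC26A4, an anion exchanger, at 2.84-fold, and ARHGAP6, at 2.73-fold. SLAMF1, a receptor of immune cells, gave 58.6 and 57.4 with shGFP, 22.0 and 18.6 with shScr, 20 and 19.8 with hairpin 65 and 22.1 and 21.9 with hairpin 66. The macrophage elastase MMP12 gave 59.8 and 48.2 with shGFP, 22.3 and 21.6 with shScr, 22.2 and 21.6 with hairpin 65 and 17.0 and 17.5 with hairpin 66. For SLAMF1 and MMP12 shGFP alone stood apart, and the other arrays lay under that marker median, so no fold is given. IL7R, the interleukin 7 receptor, gave 202 and 226 with shGFP, 86.1 and 73.7 with shScr, 152 and 167 with hairpin 65 and 185 and 182 with hairpin 66. For IL7R the PGC1a hairpins lay nearer to shGFP and above shScr (log2 1.10, adjusted p = 1.37e-04).

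NEFL, the light neurofilament, read 3734 and 3757 with shGFP, 1494 and 1426 with shScr, 730.0 and 700.5 with hairpin 65 and 724 and 688 with hairpin 66. The cell adhesion gene CHL1 read 548 and 547 with shGFP, 206 and 213 with shScr, 94.2 and 112 with hairpin 65 and 105 and 113 with hairpin 66. Both were more than 2-fold higher with shGFP than with shScr, at 2.57-fold and 2.61-fold (adjusted p = 1.27e-04 and 2.90e-04), and in both the PGC1a hairpins lay below the 2 controls. MGP, which inhibits matrix calcification, was among the brightest transcripts, at 16055 and 16495 with shGFP, 6438 and 6695 with shScr, 10904 and 11432 with hairpin 65 and 10970.5 and 11165 with hairpin 66. Its PGC1a hairpin arrays fell between the controls, 2.48-fold apart, and differed from each of them (adjusted p = 2.29e-04 from shGFP and 8.25e-05 from shScr). LRRC17 and SELENOP, a selenium carrier (2.36-fold), also placed the PGC1a hairpins between the controls; the shScr arrays of LRRC17 read 35.5 and 32.9, near that marker median. MARCKS, a membrane and actin protein (2.38-fold), and NAV3 (2.67-fold) placed them below both. Other probe sets of NAV3 and ARHGAP6 gave log2 differences down to -0.04 and 0.01, and MARCKS lost its call when the s_at and x_at probe sets, which can pair with several transcripts, were left out (log2 0.43, adjusted p = 0.145).

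CEMIP, which takes part in hyaluronan breakdown, was the gene that was lowest in shGFP relative to shScr. Its signals were 89.6 and 98.5 with shGFP, 378 and 371 with shScr, 4194 and 4283 with hairpin 65 and 4685 and 4699.9 with hairpin 66. The controls were 3.98-fold apart (SE 0.06 on the log2 scale, adjusted p = 6.19e-05), and every PGC1a hairpin array was at least 4194. TMEM158 read 454 and 464 with shGFP, 1199 and 1264 with shScr, 3445 and 3418 with hairpin 65 and 3687 and 3658 with hairpin 66. NPPC, the precursor of C-type natriuretic peptide, read 94.0 and 109 with shGFP, 276 and 281 with shScr, 675 and 729.8 with hairpin 65 and 668 and 785 with hairpin 66, and ITIH5, a hyaluronan-associated protein, 369.7 and 415 with shGFP, 859 and 837 with shScr, 2425 and 2504 with hairpin 65 and 2552 and 2668 with hairpin 66. In these 4 genes shGFP was lowest, shScr intermediate and both PGC1a hairpins highest, with no overlap between the shGFP, the shScr and the PGC1a hairpin arrays.

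TXNIP, an arrestin that restrains glucose uptake, gave 518 and 539.8 with shGFP, 1446 and 1435 with shScr, 1831 and 1920.3 with hairpin 65 and 1662 and 1709 with hairpin 66. FZD6, a Wnt receptor, gave 219.9 and 201 with shGFP, 569 and 547 with shScr, 643 and 675 with hairpin 65 and 712 and 695 with hairpin 66. In both genes shGFP was the outlying hairpin, at 2.72-fold and 2.65-fold below shScr, and the PGC1a hairpins lay a log2 difference of 0.30 and 0.29 above shScr. AIM2, a sensor of cytosolic DNA (2.19-fold), and RIN2 (2.15-fold) had the same order. VAMP3, a vesicle SNARE, gave 1479.8 and 1457 with shGFP, 3229 and 3236 with shScr, 2424 and 2486 with hairpin 65 and 2374 and 2385 with hairpin 66; here, as in MPPED2 (2.46-fold), GCH1 (2.19-fold) and MYOF (2.15-fold), the PGC1a hairpins lay between the controls. TMED5 (2.31-fold) and APAF1 (2.21-fold) did too, but other probe sets of these 2 genes gave log2 differences of 0.10 and 0.06, against -1.21 and -1.14 for the brightest. MYOF lost its call without such shared probe sets, of suffix s_at or x_at (log2 -0.15, adjusted p = 0.398).

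**Figure D2:**
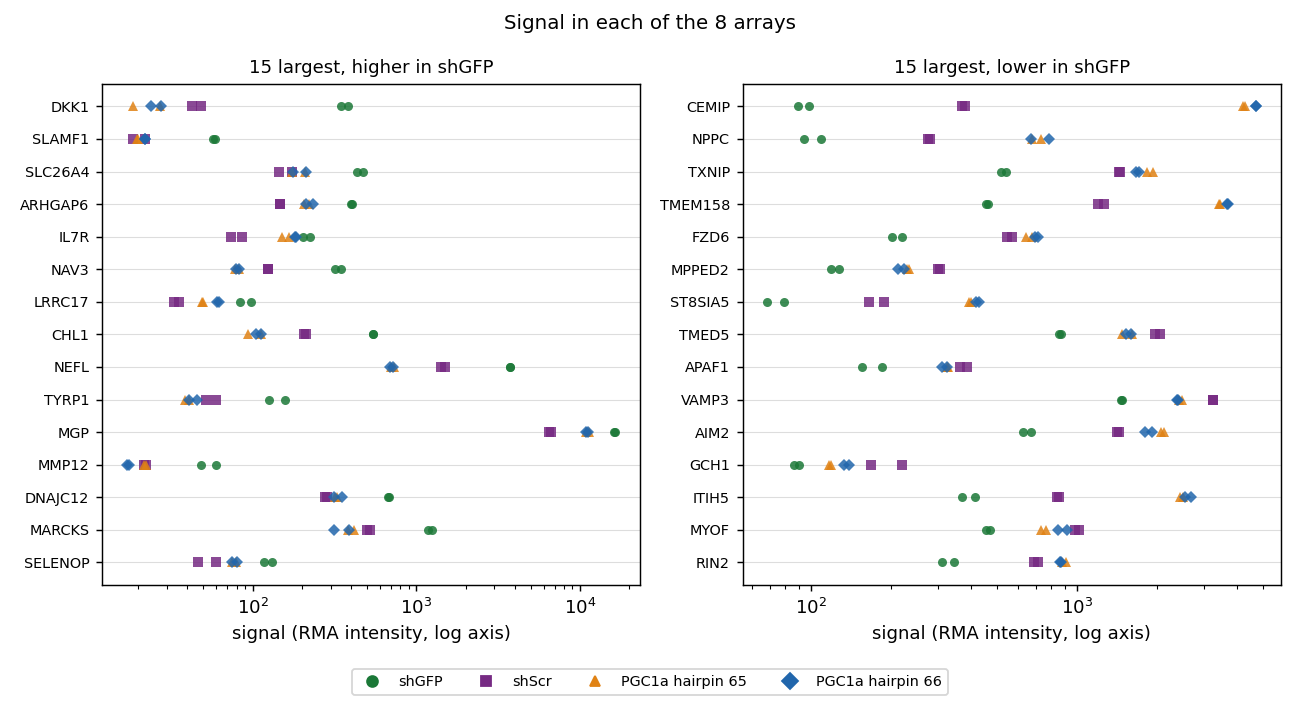
Signals of the 15 largest rises (left) and the 15 largest falls (right) in shGFP relative to shScr, 1 symbol for each of the 8 arrays, on a log axis. The 2 shGFP arrays lie outside the range of the shScr arrays in all 30 rows, as the choice of these genes requires, and the PGC1a hairpin arrays lie on either side or between.

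The PGC1a hairpin arrays were then placed against the controls for all genes that differed. These placements share the shGFP and shScr arrays with the comparison that chose the genes, so they are given as a description with no test. Of the 526 genes higher in shGFP, the mean of the PGC1a hairpins was below both controls in 196, between them in 232 and above both in 98. Of the 413 genes lower in shGFP, it was below both in 18, between in 152 and above both in 243. Over all 11963 genes it was below both in 4479, between in 3305 and above both in 4179. Taking the arrays singly, all 4 PGC1a hairpin arrays lay above every control array for 190 of the 413 genes and below every control array for 134 of the 526.

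For most of these genes shScr was the nearer control. The PGC1a hairpin mean was nearer to shScr in 335 of the 526 genes higher in shGFP (63.7%) and in 354 of the 413 lower in it (85.7%), against 56.5% of all genes. With at least a 1.5-fold difference these were 117 of 156 (75%) and 111 of 118 (94.1%). Tested against shGFP, where 3312 of all genes (27.7%) were called, the 526 genes held 54 that were higher and 337 that were lower with the PGC1a hairpins, and the 413 held 357 higher and 7 lower. Tested against shScr, where 2446 of all genes (20.4%) were called, the 526 held 199 higher and 98 lower, and the 413 held 145 higher and 61 lower. A shGFP control and a shScr control thus gave different counts for the same knockdown arrays. The shGFP and the shScr arrays both chose these genes, so the directions against either control are in part set by that choice. These counts are a description as well.

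Gene lists were read by how many measured members were called, beside 7.85% of all genes, and by their median log2 difference, beside 0.00 over all genes. Of 41 lists with 1300 measured genes, those with the highest shares called were mesenchymal transcription factors and markers (9 of 20), immediate early factors (14 of 33), TGF-beta target genes (9 of 23) and hypoxia response genes (11 of 32). Most had members in both directions. The lists share genes, so they are not separate: CCN2, JUN, JUNB and FN1, among others, count in more than 1 list. None of 25 genes of MHC and antigen processing, 28 of cholesterol and fatty acid synthesis, 51 cytosolic ribosomal proteins, 26 of the PGC1 family and mitochondrial transcription, or 13 blood and endothelial markers was called. Without 1 control array the counts of most lists fell, as did those over all genes, and ranges over these 4 fits are given beside many of the lists.

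**Figure D3:**
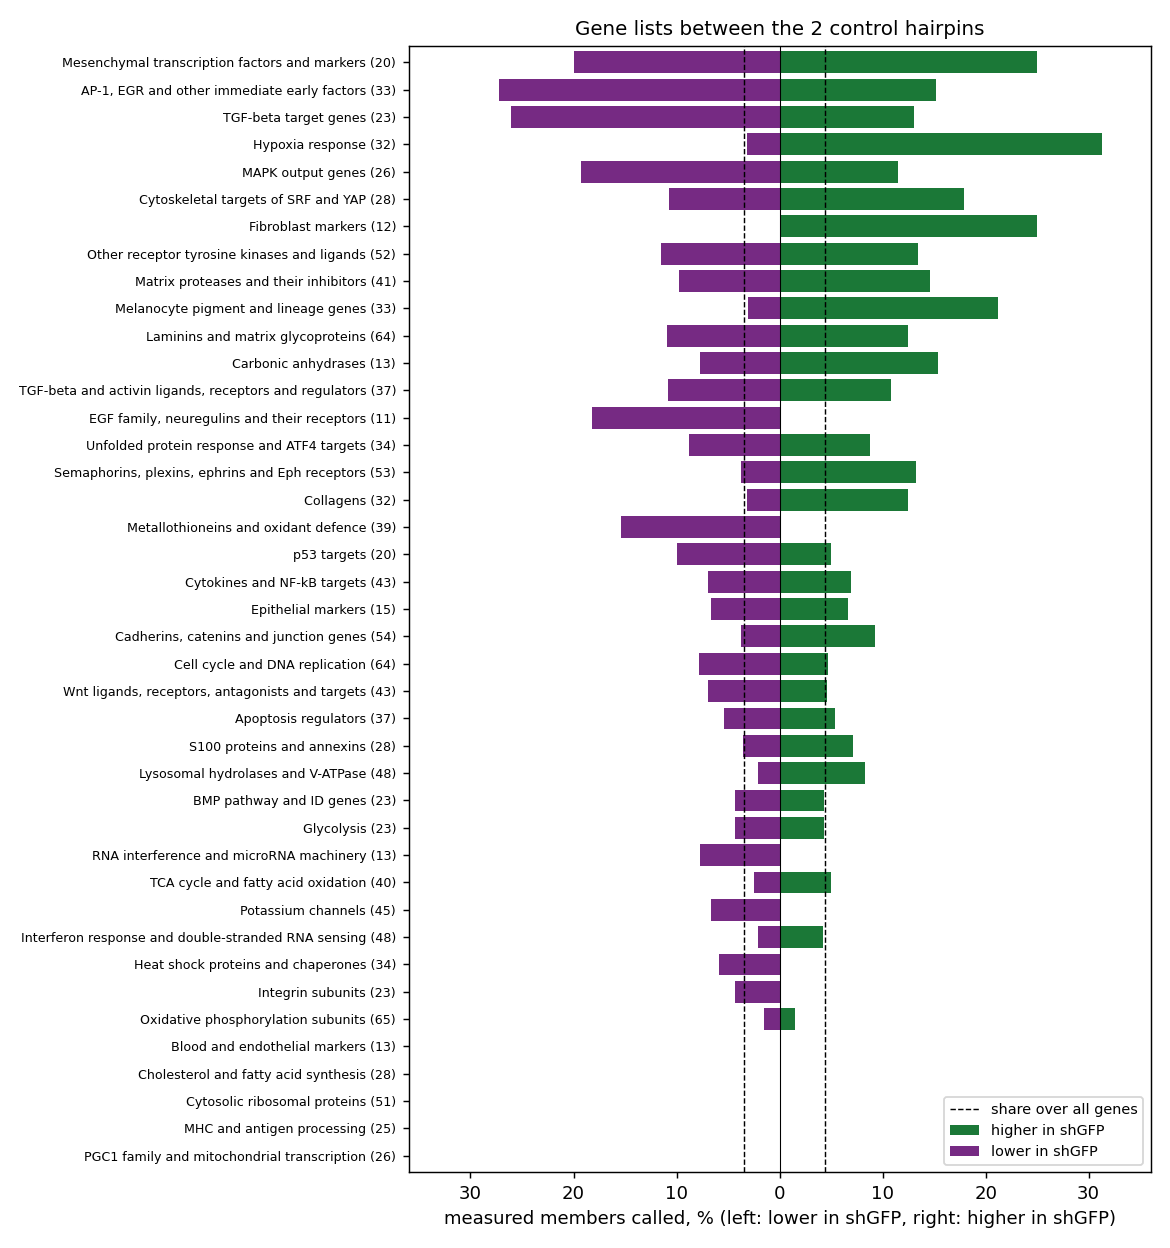
Share of the measured members of each of 41 gene lists called higher (right, green) or lower (left, purple) in shGFP than in shScr, with the number measured in brackets and the shares over all genes (4.40% and 3.45%) as dashed lines. Hypoxia genes were called mostly to the right, metallothioneins and oxidant defence genes to the left, and immediate early, mesenchymal and TGF-beta target genes to both sides.

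Hypoxia response genes are switched on by HIF, a factor that oxygen-dependent hydroxylases such as EGLN1 mark for destruction. Of 32 measured, 10 were higher in shGFP (SLC2A3, PDK1, AK4, KDM3A, P4HA1, PLOD1, BNIP3L, EGLN1, DDIT4 and INSIG2) and 1, CA12, was lower; the list median was 0.15. Without 1 control array, 3 to 6 members were called higher. SLC2A3, a glucose transporter, read 1200.4 and 1301 with shGFP, 792 and 769 with shScr, 1242 and 1269 with hairpin 65 and 1079.6 and 1046 with hairpin 66. Its shGFP arrays were 1.6-fold above shScr (adjusted p = 0.00110) and overlapped those of hairpin 65. The 3 probe sets of SLC2A3 gave log2 differences from 0.29 to 0.68. PDK1, a kinase that closes pyruvate dehydrogenase, read 190.3 and 202 with shGFP, 135 and 144 with shScr, 258 and 278 with hairpin 65 and 247 and 248 with hairpin 66, with shScr lowest, shGFP above it (1.41-fold, adjusted p = 0.00576) and the PGC1a hairpins highest.

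The same order of hairpins held for AK4, an adenylate kinase, which read 964 and 1039 with shGFP, 748 and 693 with shScr, 1524 and 1532 with hairpin 65 and 1398 and 1364 with hairpin 66. Its call was lost without shGFP replicate 2 (adjusted p = 0.0501) and without shScr replicate 2 (0.0558). KDM3A, a histone demethylase, and the collagen hydroxylases P4HA1 and PLOD1 were 1.31-fold, 1.35-fold and 1.27-fold higher in shGFP (adjusted p = 0.0152, 0.0190 and 0.0195), and for all 3 the PGC1a hairpin mean was above both controls. EGLN1 went the other way with the PGC1a hairpins: it read 500.1 and 490.4 with shGFP and 387 and 405 with shScr, and 312 to 336 in the 4 PGC1a hairpin arrays, below both controls. Some well-known members did not pass the test: VEGFA, an angiogenic factor, had a log2 difference of -0.21 (adjusted p = 0.157), SLC2A1 -0.02 (0.865) and NDRG1 0.27 (0.0598). Against shGFP, 17 members were higher and 1 lower with the PGC1a hairpins, and against shScr 22 were higher and 1 lower, with list medians of 0.29 and 0.51. In glycolysis, 2 of 23 genes were called, SLC2A3 and hexokinase HK2. HK2 read 2355 and 2481 with shGFP, 3968 and 3721 with shScr, 4124 and 4282 with hairpin 65 and 4055 and 4038 with hairpin 66. There shGFP was the low group (1.59-fold, adjusted p = 0.00111), and the 2 probe sets of HK2 gave log2 differences of -0.67 and -0.23.

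Immediate early genes are transcribed within minutes of a growth factor or stress signal and include the AP-1 and EGR factors. In shGFP, 5 of 33 were higher (CCN2, TRIB1, JUN, CCN1 and JUND) and 9 lower (DUSP1, MAFF, IER3, KLF4, PPP1R15A, NR4A2, EGR1, JUNB and NR4A1), with a list median of -0.05; without 1 control array 2 to 3 were called higher and 3 to 5 lower. DUSP1, a MAP kinase phosphatase, read 824 and 836 with shGFP, 1257 and 1267 with shScr, 1549.5 and 1522 with hairpin 65 and 1315 and 1255 with hairpin 66. The survival gene IER3 read 3759.9 and 3982 with shGFP, 5557 and 5636 with shScr, 12847 and 12647 with hairpin 65 and 12229 and 13454 with hairpin 66, and MAFF, a small MAF factor, 1882 and 1979.9 with shGFP, 2997 and 2985 with shScr, 3567 and 3831 with hairpin 65 and 3405 and 3495 with hairpin 66. All 3 were lower in both shGFP arrays than in any other array, by 1.52-fold, 1.45-fold and 1.55-fold relative to shScr (adjusted p = 0.00110, 0.00427 and 0.00147). The 2 probe sets of DUSP1 gave log2 differences of -0.6 and -0.1. In all 9 genes that were lower in shGFP the PGC1a hairpin mean was above both controls, as in KLF4, at 75.1 and 67.3 with shGFP, 148 and 116 with shScr, 365 and 307 with hairpin 65 and 419.7 and 381 with hairpin 66.

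The members that were higher in shGFP had another order. CCN2, a matrix signalling protein and a target of YAP, read 475 and 541 with shGFP, 309.7 and 319.9 with shScr, 341 and 332 with hairpin 65 and 311 and 320.5 with hairpin 66. TRIB1, a pseudokinase, read 1655 and 1691 with shGFP, 1143 and 1188 with shScr, 1166 and 1232 with hairpin 65 and 1214 and 1222 with hairpin 66. For both, shScr and the PGC1a hairpins lay together, with adjusted p = 0.656 and 0.550 between them, and shGFP stood above at 1.61-fold and 1.44-fold (adjusted p = 0.00209 and 0.00250). JUN, CCN1 and JUND also had the PGC1a hairpin mean between the controls. FOS, the best-known member, did not pass the test (log2 -0.26, adjusted p = 0.0739). Among 26 MAPK output genes, which report ERK signalling, 3 were higher (HMGA2, JUN and SPRY4) and 5 lower (MAFF, IER3, DUSP5, EGR1 and JUNB), and without 1 control array 1 to 2 and 2 to 3. HMGA2, a chromatin architectural protein, read 4840.5 and 4859.6 with shGFP, 2916 and 2948 with shScr, 4452 and 4769.6 with hairpin 65 and 4565 and 4432 with hairpin 66; its PGC1a hairpin arrays lay just under shGFP and far above shScr (1.65-fold between controls, adjusted p = 7.14e-04). For the feedback inhibitor SPRY4 the PGC1a hairpin arrays were above both controls, at 3637 to 4051 against 2233 and 2351 with shGFP and 1885 and 1876 with shScr.

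The NF-kB subunit gene NFKB1 read 775 and 796 with shGFP, 1295 and 1280.1 with shScr, 1690.0 and 1746 with hairpin 65 and 1664 and 1694 with hairpin 66. Its inhibitor NFKBIA read 421 and 498 with shGFP, 833 and 782 with shScr, 766 and 766 with hairpin 65 and 658 and 685 with hairpin 66. Both were lowest in shGFP, at 1.64-fold and 1.76-fold below shScr (adjusted p = 5.98e-04 and 0.00187). IL11, a cytokine, was lower too, at 33.9 and 34.0 with shGFP and 53.8 and 65.5 with shScr, and 516 to 616 in the PGC1a hairpin arrays. Higher in shGFP were IL15 (adjusted p = 0.00219), the deubiquitinase TNFAIP3 (1.48-fold, 0.00448) and IL24 (1.41-fold, 0.00625), whose PGC1a hairpin means were below both controls. IL15 read 78.6 and 89.4 with shGFP and 39.2 and 38.7 with shScr, near the blood and endothelial marker median of 33.7. Its 2 probe sets gave log2 differences of 0.56 and 1.11. In all, 3 of 43 cytokines and NF-kB targets were higher and 3 lower.

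**Figure D4:**
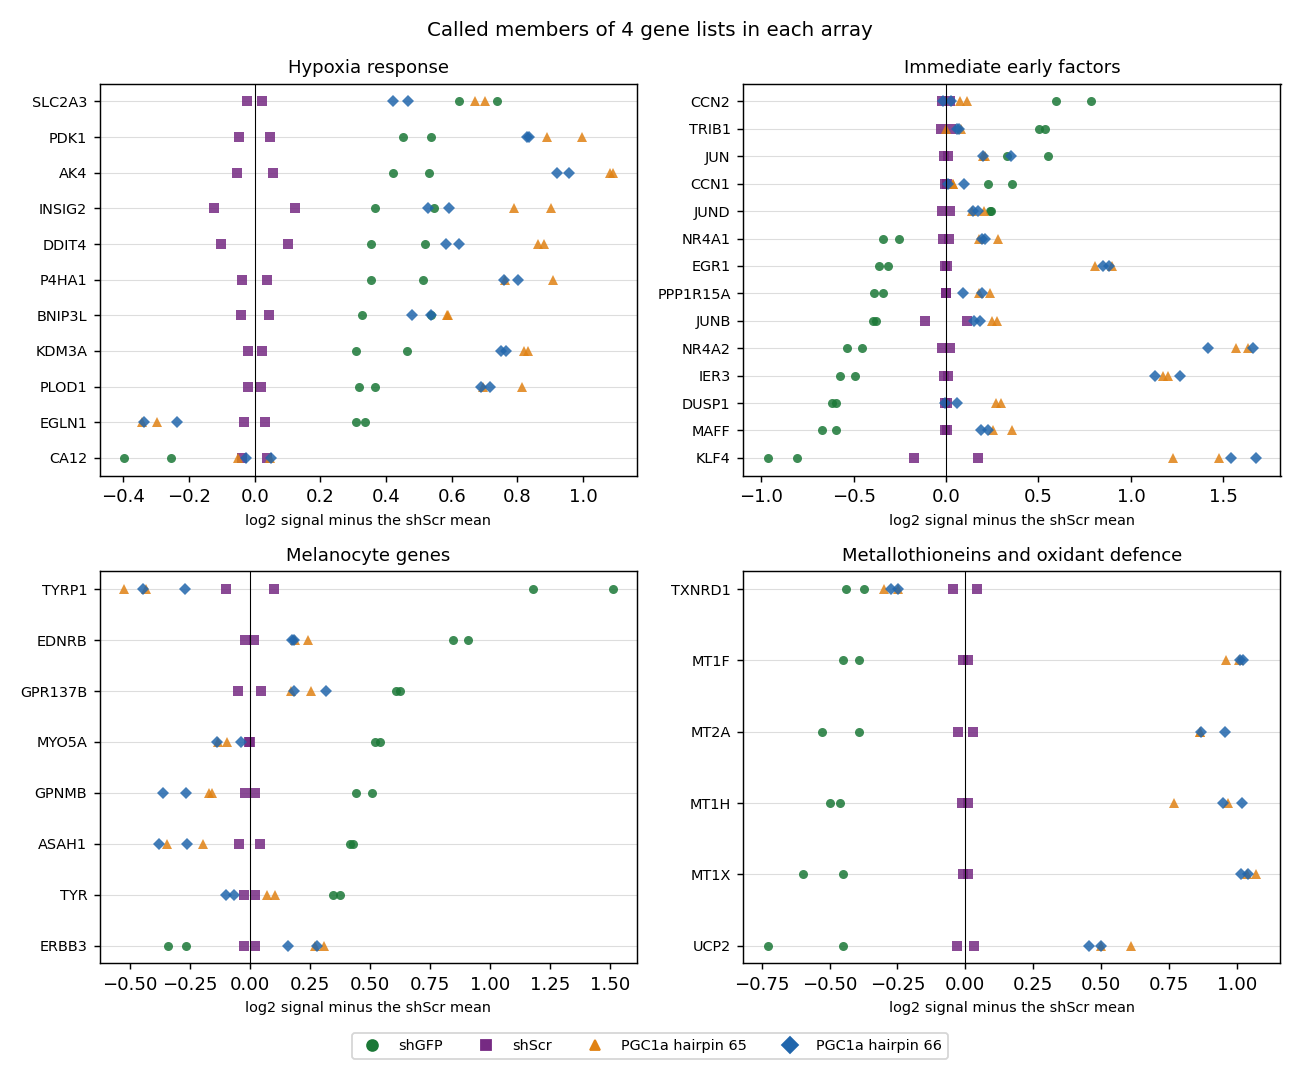
Log2 signal of each array minus the mean of the 2 shScr arrays, for the called members of 4 lists, with 1 symbol per array. Hypoxia genes placed shGFP and the PGC1a hairpins mostly on the same side of shScr. Most immediate early genes and metallothioneins that were lower in shGFP had the PGC1a hairpins on the opposite side. The shScr arrays are the baseline here and also helped to choose these genes, so the sides are in part set by that choice.

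Melanocyte genes, which serve pigment synthesis and melanosomes, were higher in shGFP in 7 of 33 (EDNRB, TYRP1, MYO5A, GPR137B, GPNMB, TYR and ASAH1) and lower in 1, the receptor ERBB3. The list median was 0.07, and 5 members were called higher in each fit without 1 control array. EDNRB, an endothelin receptor of the lineage, read 3741 and 3913 with shGFP, 2106 and 2056 with shScr, 2371 and 2461 with hairpin 65 and 2364 and 2352 with hairpin 66; TYR, tyrosinase, read 3872 and 3948 with shGFP, 3090.4 and 2995 with shScr, 3198 and 3271 with hairpin 65 and 2842 and 2908 with hairpin 66. The shGFP arrays were the highest for both, at 1.84-fold and 1.29-fold (adjusted p = 3.02e-04 and 0.00919), and the PGC1a hairpins lay near shScr (adjusted p = 0.0310 and 0.978 against it). GPNMB, a melanosome glycoprotein, read 11977 and 12554 with shGFP, 8690.5 and 8949.8 with shScr, 7844 and 7914 with hairpin 65 and 7339.7 and 6871 with hairpin 66, with the PGC1a hairpins below both controls. MYO5A, which carries melanosomes, was 1.45-fold higher by its brightest probe set (adjusted p = 0.00246), but its probe sets differed in sign and their mean did not pass (log2 0.15, adjusted p = 0.306). The ERBB3 call was lost without any 1 of the control arrays (adjusted p from 0.101 to 0.179) and without either array of hairpin 65 (0.0551).

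The lineage factors themselves were not called between the controls. MITF read 7208 and 7407 with shGFP, 7481 and 7584 with shScr, 5013 and 5232 with hairpin 65 and 4655 and 4773 with hairpin 66 (log2 -0.04 between controls, adjusted p = 0.719), with the PGC1a hairpins lower, and SOX10 had a log2 difference of -0.04 (adjusted p = 0.823). PMEL, a melanosome matrix protein, had a log2 difference of 0.28 (adjusted p = 0.0710). The summed signal of the 33 genes was 69099 and 69812 with shGFP and 61018 and 61172 with shScr. It was 51222 and 52591 with hairpin 65 and 48512 and 48993 with hairpin 66, so the groups did not overlap. Such a sum is weighted to the brightest genes, among them the called GPNMB, and the list median between the controls was 0.07. In bulk samples, fewer cells of a type and less RNA per cell cannot be told apart. Among 48 lysosomal genes, 4 were higher in shGFP: the cathepsins CTSS (1.99-fold), CTSH (1.54-fold) and CTSK (1.41-fold) and the receptor SCARB2 (1.28-fold). The 2 probe sets of CTSS gave log2 differences of 0.34 and 0.99. NPC1, a cholesterol exporter, was lower (1.24-fold), a call lost without any 1 control array.

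TYRP1, the pigment enzyme next to tyrosinase, had the largest difference of the list, at 126 and 158 with shGFP, 51.7 and 59.4 with shScr, 38.6 and 41.1 with hairpin 65 and 46.0 and 40.7 with hairpin 66. Both shGFP arrays were above the other 6 (2.54-fold, SE 0.13 on the log2 scale, adjusted p = 0.00110). Its promoter window is shown because MITF is known to act on M-boxes in pigment gene promoters. It is chr9:12693135-12693434 on the + strand in RefSeq GRCh38.p14, 250 bases before to 50 after the start of the gene, with the M-box core CATGTG in capitals on either strand, CACATG being its reverse.
TYRP1: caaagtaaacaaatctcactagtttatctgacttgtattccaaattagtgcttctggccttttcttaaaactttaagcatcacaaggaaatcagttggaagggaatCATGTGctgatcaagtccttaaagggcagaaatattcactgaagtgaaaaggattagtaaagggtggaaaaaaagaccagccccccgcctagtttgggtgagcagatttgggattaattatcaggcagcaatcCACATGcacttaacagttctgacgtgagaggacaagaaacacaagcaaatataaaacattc
The core stands 2 times in this window and at least once in 11.1% of 35116 promoter windows. Of the 12 windows found for the 15 largest rises, those of TYRP1 and DNAJC12 hold it. A match is a description and not a site.

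Metallothioneins bind zinc and copper and are switched on by metals and oxidants. Of 39 genes of metallothioneins and oxidant defence, none was higher and 6 were lower in shGFP: MT1X, MT1F, MT2A, MT1H, the thioredoxin reductase TXNRD1 and the mitochondrial carrier UCP2. The list median was -0.02, and without 1 control array 2 to 5 were called. MT1X read 3235 and 3588 with shGFP, 4927 and 4868 with shScr, 10047 and 10290.4 with hairpin 65 and 9910.0 and 10093 with hairpin 66. MT2A, the brightest of the family, read 5549 and 6106 with shGFP, 7854 and 8160.2 with shScr, 14559.9 and 14582 with hairpin 65 and 14613 and 15544 with hairpin 66. In both genes shGFP was lowest, shScr higher (1.44-fold and 1.38-fold, adjusted p = 0.00427 and 0.00837) and the PGC1a hairpins highest, at log2 1.04 and 0.89 above shScr. The MT2A call was lost without shGFP replicate 1 (adjusted p = 0.0582) and shScr replicate 2 (0.0688).

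MT1F and MT1H had the same order (1.34-fold and 1.39-fold, adjusted p = 0.00517 and 0.0110). MT1G and MT1E, with log2 differences of -0.26 and -0.30, did not pass (adjusted p = 0.117 and 0.0655). All these probe sets are of the x_at kind, which can pair with several near-identical metallothionein transcripts, so the genes are not separate measurements. SLC30A1, a zinc exporter named after its values were seen, was lower in shGFP as well, at 1447 and 1465 with shGFP, 2151 and 2038 with shScr, 1434 and 1383 with hairpin 65 and 1465 and 1412 with hairpin 66; there shGFP and the PGC1a hairpins lay together (adjusted p = 0.699) and shScr stood above (1.44-fold, adjusted p = 0.00264). TXNRD1, an oxidant defence enzyme, had its PGC1a hairpin mean between the controls, at 3219 to 3337 against 2928 and 3059 with shGFP and 3846 and 4091 with shScr. HMOX1, heme oxygenase, gave 369.6 and 334 with shGFP and 247 and 380.4 with shScr, with overlapping controls (adjusted p = 0.626).

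Promoter windows of 2 metallothioneins and of SLC30A1 are shown because these genes are known targets of the metal-sensing factor MTF1, whose element has the core TGCACNC or TGCGCNC, where N is any base. These 2 cores were added after the data were seen. Matches on either strand are in capitals, and the windows span 250 bases before to 50 after the gene start in RefSeq GRCh38.p14. MT1X is at chr16:56682220-56682519 (+), MT2A at chr16:56608334-56608633 (+) and SLC30A1 at chr1:211579112-211579411 (-).
MT1X: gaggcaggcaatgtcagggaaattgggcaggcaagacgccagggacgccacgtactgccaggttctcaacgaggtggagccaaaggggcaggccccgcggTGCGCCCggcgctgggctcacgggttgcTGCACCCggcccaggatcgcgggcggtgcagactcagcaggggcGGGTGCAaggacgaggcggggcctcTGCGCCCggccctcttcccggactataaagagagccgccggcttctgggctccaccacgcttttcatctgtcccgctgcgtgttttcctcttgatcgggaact
MT2A: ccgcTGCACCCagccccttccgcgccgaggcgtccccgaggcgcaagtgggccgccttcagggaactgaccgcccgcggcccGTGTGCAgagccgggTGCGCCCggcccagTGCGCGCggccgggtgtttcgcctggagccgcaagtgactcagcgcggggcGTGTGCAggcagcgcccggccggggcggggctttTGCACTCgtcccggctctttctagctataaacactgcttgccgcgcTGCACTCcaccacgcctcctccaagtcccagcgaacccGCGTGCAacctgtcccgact
SLC30A1: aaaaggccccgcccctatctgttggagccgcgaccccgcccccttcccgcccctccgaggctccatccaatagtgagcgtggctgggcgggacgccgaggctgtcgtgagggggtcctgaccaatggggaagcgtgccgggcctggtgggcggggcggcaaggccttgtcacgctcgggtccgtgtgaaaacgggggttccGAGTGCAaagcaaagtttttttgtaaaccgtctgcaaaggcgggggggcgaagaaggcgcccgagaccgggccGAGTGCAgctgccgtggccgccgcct
The windows hold 4, 8 and 2 matches of the 2 cores. Over all 35116 windows, 12.1% hold TGCACNC and 20% hold TGCGCNC at least once. MT1H, whose window was also found, holds both TGCACNC and TGCGCNC.

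In the unfolded protein response and ATF4 list, 3 of 34 were higher (VLDLR, DDIT4 and NUPR1) and 3 lower (CEBPB, MTHFD2 and PPP1R15A), 17.6% in all; without 1 control array 0 to 2 were called higher and 1 lower. CEBPB, a transcription factor, read 2682 and 2775 with shGFP, 4276 and 4409 with shScr, 4344 and 4309.8 with hairpin 65 and 4082 and 4125 with hairpin 66, with shGFP alone apart (1.59-fold, adjusted p = 7.14e-04). MTHFD2, a mitochondrial folate enzyme, was 1.3-fold lower, and lost its call without any 1 control array (adjusted p from 0.0581 to 0.0903). Of 34 heat shock proteins and chaperones, DNAJB6 and DNAJB1 were lower (1.21-fold and 1.26-fold), both of them uncalled in each fit without 1 control array.

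The TGF-beta pathway had members in both directions. Among its ligands, receptors and regulators, 4 of 37 were higher (NBL1, TGFBR2, LTBP1 and SMAD7) and 4 lower (ACVR1, INHBA, TGFBR3 and SKI); without 1 control array 1 was called higher and 2 to 3 lower. The receptor TGFBR2 read 738 and 726 with shGFP, 576 and 582 with shScr, 1103 and 1117 with hairpin 65 and 1117 and 1123 with hairpin 66, with shScr lowest (1.26-fold, adjusted p = 0.0101). ACVR1, a type I receptor, read 601 and 636 with shGFP, 958 and 1002 with shScr, 1179.8 and 1207 with hairpin 65 and 1304 and 1174 with hairpin 66, with shGFP lowest (1.58-fold, adjusted p = 0.00203). INHBA, the activin subunit, was 1.54-fold lower in shGFP by its brightest probe set, but at 0.01 on the log2 scale by its other probe set. NBL1, a secreted BMP antagonist, was 1.65-fold higher (adjusted p = 8.30e-04), and its PGC1a hairpin mean was below both controls.

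Target genes of TGF-beta were called higher in 3 of 23 (CCN2, COL4A1 and SMAD7) and lower in 6 (TIMP3, FN1, IL11, JUNB, TAGLN and TGM2), and without 1 control array 1 was higher and 3 to 5 were lower. TIMP3, a protease inhibitor of the matrix, read 2922 and 3064 with shGFP, 4879 and 4953 with shScr, 3779 and 3973 with hairpin 65 and 3711 and 3665 with hairpin 66, with shGFP lowest and the PGC1a hairpins between (1.64-fold, adjusted p = 7.14e-04). Fibronectin FN1 was 1.52-fold lower (adjusted p = 0.00229), but not called without s_at and x_at probe sets (log2 -0.14, adjusted p = 0.476). In the BMP list, CHRDL1, a BMP antagonist, was lower, at 113 and 90.5 with shGFP and 210.4 and 212 with shScr, and read 1038 to 1250.2 with the PGC1a hairpins. The inhibitor SMAD6 was 1.31-fold higher by its brightest probe set, but its 4 probe sets ran from -0.19 to 0.39 on the log2 scale with a mean of 0.06, and it lost its call without any 1 control array (adjusted p from 0.0875 to 0.183). The other 21 of 23 BMP genes, ID genes included, were not called.

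Wnt genes had 2 of 43 members higher, DKK1 and the receptor ROR1, and 3 lower, FZD6, SFRP1 and FZD1; without 1 control array 1 was higher and 2 to 3 were lower. SFRP1, a secreted Wnt inhibitor, read 97.2 and 93.1 with shGFP, 144 and 142 with shScr, 797 and 721 with hairpin 65 and 841 and 847 with hairpin 66; the controls were 1.5-fold apart (adjusted p = 0.00266), a small step beside that to the PGC1a hairpins (log2 2.49 from shScr). FZD1 read 149.5 and 166 with shGFP and 245 and 246 with shScr, and 472 to 551 with the PGC1a hairpins. The list median was -0.05, and the secreted antagonists DKK1 and SFRP1 differed in opposite directions.

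Matrix genes were split as well. Of 32 collagens, COL5A2, COL4A5, COL15A1 and COL4A1 were higher and COL6A1 lower, and without 1 control array 1 to 2 were called higher. COL5A2, a fibrillar collagen, read 1565 and 1590.1 with shGFP, 962 and 911 with shScr, 1035 and 1099 with hairpin 65 and 1048 and 1086 with hairpin 66 (1.69-fold, adjusted p = 7.14e-04), with shGFP highest. COL4A5 (1.73-fold) lost its call without either shGFP array (adjusted p = 0.0577 and 0.0645) or shScr replicate 2 (0.0558), and COL6A1 had probe sets of both signs. Among 64 laminins and matrix glycoproteins, 8 were higher (CCN2, LUM, SPP1, VCAN, CCN3, LAMC1, SPARC and CCN1) and 7 lower (CEMIP, CCN6, FN1, HAPLN1, OLFML3, FBLN5 and EFEMP1), against 5 to 6 and 4 to 6 without 1 control array. SPP1, osteopontin, read 11233 and 11345 with shGFP, 8065 and 7786 with shScr, 7825 and 8371 with hairpin 65 and 7406 and 7486 with hairpin 66, with shGFP highest and the rest together. VCAN, the proteoglycan versican, read 1948 and 2134 with shGFP, 1383 and 1386 with shScr, 2120.2 and 2320.4 with hairpin 65 and 2194 and 2180.2 with hairpin 66, with shScr the low group (1.47-fold, adjusted p = 0.00435) and no call between shGFP and the PGC1a hairpins (adjusted p = 0.242).

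Proteases of the matrix gave 6 of 41 higher (MMP12, TIMP2, MMP2, MMP1, ADAM23 and MMP8) and 4 lower (TIMP3, PLAUR, ADAM19 and RECK); without 1 control array 1 to 2 were called higher and 3 lower. PLAUR, the urokinase receptor, read 337 and 354 with shGFP, 501 and 464 with shScr, 1398 and 1407 with hairpin 65 and 1309.5 and 1349.5 with hairpin 66. The gelatinase MMP2 read 829 and 903 with shGFP, 555 and 602 with shScr, 876 and 712 with hairpin 65 and 910.2 and 866 with hairpin 66. PLAUR rose in order from shGFP to shScr (1.4-fold, adjusted p = 0.00491) to the PGC1a hairpins, although without s_at and x_at probe sets it was not called (log2 -0.24, adjusted p = 0.0935). MMP2 had shScr as the low group (1.5-fold, adjusted p = 0.0176), and shGFP overlapped the PGC1a hairpins. Of 23 integrin subunits, ITGA3 was called, lower in shGFP by 1.49-fold, and not without any 1 control array (adjusted p from 0.0502 to 0.131).

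Fibroblast markers, which melanoma cells with a mesenchymal state also express, were called higher in 3 of 12, FAP, LUM and THY1. FAP, a surface protease, read 486 and 505 with shGFP, 306 and 269.6 with shScr, 555 and 546 with hairpin 65 and 533 and 530.4 with hairpin 66; LUM, the proteoglycan lumican, read 883 and 751 with shGFP, 399.5 and 392 with shScr, 483 and 553 with hairpin 65 and 598 and 497 with hairpin 66. In both genes shScr was lowest, by 1.72-fold and 2.06-fold (adjusted p = 0.00109 and 0.00249). The summed signal of the 12 markers was 2139 and 2283 with shGFP, 1484 and 1523 with shScr, and 1909 to 2033 with the PGC1a hairpins. This sum is weighted to bright genes such as FAP and LUM, and the list median between the controls was 0.03. The collagen COL3A1, a defining fibroblast marker, read 25.5 on average, and the part of other cell types in these differences was not tested. Of 15 epithelial markers, ESRP1 was higher and KRT18 lower, both uncalled without any 1 control array. Their summed signal was 3222 and 3291 with shGFP and 3675 and 3760 with shScr. It was 3900 and 3970 with hairpin 65 and 3772 and 4253 with hairpin 66. This sum too is weighted to bright genes, and the list median between the controls was -0.003.

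Mesenchymal transcription factors and markers were called in 9 of 20, with 5 higher in shGFP (CDH2, SNAI2, JUN, SPARC and ZEB2) and 4 lower (NGFR, ZEB1, FN1 and AXL). Without 1 control array 0 to 1 were called higher and 3 to 4 lower. ZEB1, a repressor of epithelial genes, read 438 and 422 with shGFP, 662 and 654 with shScr, 1207 and 1273 with hairpin 65 and 1231 and 1144 with hairpin 66. Its relative ZEB2 read 595 and 562 with shGFP, 337 and 309 with shScr, 186 and 250.5 with hairpin 65 and 267 and 178 with hairpin 66. ZEB1 was lower in shGFP (1.53-fold, adjusted p = 0.00178) and ZEB2 higher (1.79-fold, adjusted p = 0.0480), and the PGC1a hairpins lay beyond shScr in both cases. AXL, a receptor kinase of invasive melanoma cells, was lowest in shGFP, at 668 and 679.6 with shGFP and 906 and 950.1 with shScr, and reached 1743 to 1877 with the PGC1a hairpins. NGFR, a neural crest receptor, read 128 and 134 with shGFP, 220.0 and 203 with shScr, 201 and 191 with hairpin 65 and 203 and 194 with hairpin 66, with shGFP alone low (1.62-fold, adjusted p = 0.00129).

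Of 28 cytoskeletal targets of SRF and YAP, 5 were higher (MYLK, CCN2, TRIB1, ACTA2 and CCN1) and 3 lower (TPM2, AXL and TAGLN); without 1 control array these were 3 and 1 to 3. MYLK, the myosin light chain kinase, read 578 and 582 with shGFP, 321 and 311 with shScr, 191 and 188 with hairpin 65 and 185 and 199 with hairpin 66, so that the order was shGFP, shScr and then the PGC1a hairpins (1.83-fold between controls, adjusted p = 3.70e-04). TPM2, a tropomyosin, was 1.53-fold lower (adjusted p = 0.00153), but not called without s_at and x_at probe sets (log2 -0.08, adjusted p = 0.747).

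Receptor tyrosine kinases and their ligands had 7 of 52 members higher in shGFP (VEGFC, IGFBP2, IGFBP5, FGF13, PDGFD, FGF7 and NTRK2) and 6 lower (IGFBP3, AXL, MERTK, IGFBP6, PTN and FGFR4); without 1 control array these were 3 to 4 and 2 to 5. The binding proteins for insulin-like growth factors differed in both directions. IGFBP3 read 267 and 311 with shGFP, 485 and 473 with shScr, 1905 and 1923 with hairpin 65 and 1985 and 2048 with hairpin 66. IGFBP5 read 79.3 and 94.7 with shGFP, 49.3 and 43.1 with shScr, 276 and 314 with hairpin 65 and 402 and 357 with hairpin 66, and IGFBP2 222 and 215 with shGFP, 156 and 138 with shScr, 111 and 112 with hairpin 65 and 124 and 126 with hairpin 66. Thus IGFBP3 was lowest in shGFP (1.66-fold, adjusted p = 0.00212), IGFBP5 lowest in shScr (1.88-fold, adjusted p = 0.00459), both highest with the PGC1a hairpins, while IGFBP2 was highest in shGFP (1.49-fold, adjusted p = 0.00371). Of 11 genes of the EGF family and its receptors, HBEGF and ERBB3 were lower, HBEGF by 1.29-fold, a call lost without shGFP replicate 2 (adjusted p = 0.0853), shScr replicate 1 (0.0751) or shScr replicate 2 (0.0870).

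Of 53 semaphorins, plexins, ephrins and Eph receptors, which guide axons and migrating cells, 44 were not called, 7 were higher in shGFP (SEMA3C, PLXNA1, SEMA5A, SLIT2, SEMA3A, EFNB2 and SEMA4G) and 2 lower (EFNA1 and NRP1), with 2 to 5 higher without 1 control array; the list median was 0.03. SEMA3C, a secreted semaphorin, read 1058 and 975 with shGFP, 512 and 499 with shScr, 841 and 894 with hairpin 65 and 863 and 834 with hairpin 66 (2.01-fold, adjusted p = 3.07e-04). The 2 probe sets of SEMA3C gave log2 differences of 0.45 and 1.01. Its relative SEMA3A read 169.8 and 195 with shGFP and 123 and 135 with shScr, and 323 to 369 with the PGC1a hairpins. NRP1, a receptor for both, had the opposite order between controls, at 144 and 139 with shGFP and 204 and 223 with shScr, and 641 to 746 with the PGC1a hairpins. PLXNA1 was 1.53-fold higher by its brightest probe set and -0.01 on the log2 scale without s_at and x_at probe sets.

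Cadherins and junction genes had 5 of 54 higher (CDH19, PCDH7, NCAM1, ALCAM and CDH2) and 2 lower (MCAM and CTNNA1), with 4 to 5 higher and 1 lower without 1 control array. CDH19, a cadherin of the neural crest, read 499 and 504 with shGFP, 246 and 250.3 with shScr, 694 and 754 with hairpin 65 and 742 and 698 with hairpin 66, with shScr lowest (2.02-fold, adjusted p = 2.95e-04). PCDH7 read 2818 and 2841 with shGFP, 1635 and 1640.5 with shScr, 1024 and 965 with hairpin 65 and 1042 and 955 with hairpin 66, with shGFP highest and the PGC1a hairpins lowest. MCAM, a melanoma adhesion molecule, read 962 and 1018 with shGFP, 1557 and 1542 with shScr, 1938 and 1963 with hairpin 65 and 1952 and 1901 with hairpin 66, lowest in shGFP (1.57-fold, adjusted p = 9.63e-04).

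Potassium channels had 3 of 45 members lower and none higher, 6.67% of the list beside 7.85% of all genes. Without s_at and x_at probe sets 1 was called lower. The calcium-activated KCNN4 read 267 and 250.3 with shGFP, 453 and 439 with shScr, 892 and 1009 with hairpin 65 and 904 and 892 with hairpin 66; KCNK5, a leak channel, was 1.61-fold lower (adjusted p = 0.00125). In KCNN4 shGFP was lowest and the PGC1a hairpins highest (1.73-fold between controls, adjusted p = 0.00118). KCNMA1 was lower as well, at 85.3 and 113 with shGFP and 145 and 155 with shScr, but its call was lost without shGFP replicate 1 (adjusted p = 0.0528) and without either shScr array (0.0845 and 0.133), and its log2 difference was -0.01 without s_at and x_at probe sets. Of 13 carbonic anhydrases, CA8 and CA11 were higher and CA12 lower, by 1.55-fold, 1.35-fold and 1.25-fold, each uncalled in at least 3 of the 4 fits without 1 control array. In the S100 and annexin list, ANXA1 and ANXA6 were higher (1.51-fold and 1.45-fold, adjusted p = 0.00250 and 0.00342) and S100A3 lower (1.41-fold), the last uncalled without shGFP replicate 1 (adjusted p = 0.0516) or shScr replicate 1 (0.0636).

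Mitochondrial lists stood near or below the share over all genes. Of 65 oxidative phosphorylation subunits, 1 was higher, COX7C of complex IV, and 1 lower, ATP5MC1 of the ATP synthase. ATP5MC1 read 2369.5 and 2473 with shGFP, 3428 and 3582 with shScr, 2923 and 2964 with hairpin 65 and 2660.0 and 2955 with hairpin 66, with shGFP lowest (1.45-fold, adjusted p = 0.00468) and the PGC1a hairpins between. COX7C was 1.34-fold higher, but not called without shScr replicate 2 (adjusted p = 0.0546). The list median was 0.04 between the controls. With the PGC1a hairpins, 39 of these subunits were lower and 1 higher against shGFP, and 34 lower and none higher against shScr, with medians of -0.23 and -0.20. For the oxidative phosphorylation list the choice of control thus changed the counts by a few genes.

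Among 40 genes of the TCA cycle and fatty acid oxidation, DECR1 and PDHX were higher and IDH3A lower, by 1.3-fold, 1.21-fold and 1.25-fold, and most fits without 1 control array lost these calls. Against shGFP 24 of the 40 were lower with the PGC1a hairpins and 2 higher, and against shScr 16 were lower and 1 higher. In the list of the PGC1 family and mitochondrial transcription none of 26 was called. TFAM, the mitochondrial transcription factor, read 2044 and 2061 with shGFP, 2135 and 2113 with shScr, 971 and 1126 with hairpin 65 and 1053 and 989 with hairpin 66, with the controls close (log2 -0.05, adjusted p = 0.779) and the PGC1a hairpins low. ESRRA, a nuclear receptor that PGC1a coactivates, had a log2 difference of 0.17 between the controls (adjusted p = 0.135).

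Hairpins can set off sensors of double-stranded RNA, so that list was read as well. Of 48 interferon and double-stranded RNA sensing genes, TLR3 and IFI44 were higher and ISG20 lower, 6.25% of the list. ISG20, an RNA exonuclease, read 2025 and 2131 with shGFP, 3034 and 3108 with shScr, 3199 and 3349.6 with hairpin 65 and 2953 and 3226 with hairpin 66, with shGFP lowest (1.48-fold, adjusted p = 0.00340). TLR3, a receptor for double-stranded RNA, was 1.35-fold higher, a call lost without shGFP replicate 2 (adjusted p = 0.111) or either shScr array (0.114 and 0.0644), and IFI44 had probe sets of both signs. The kinase EIF2AK2, the GTPase MX1 and the effector IFIT1 had log2 differences of -0.01, 0.05 and 0.15 (adjusted p = 0.953, 0.861 and 0.488). Of 13 genes of the RNA interference machinery, AGO3 was lower (1.39-fold), a call lost without shGFP replicate 1 (adjusted p = 0.0741) or either shScr array (0.0712 and 0.0751). DICER1 was just outside the threshold, at 509.8 and 490.3 with shGFP and 399 and 393 with shScr (adjusted p = 0.0514).

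Of 64 cell cycle and DNA replication genes, 3 were higher (CDKN1B, CDC25A and CDKN1A) and 5 lower (MKI67, KIF20A, CDKN1C, CDC20 and TK1), with 0 higher and 0 to 1 lower without 1 control array. KIF20A, a mitotic kinesin, read 1818 and 1888 with shGFP and 2294 and 2302 with shScr (1.24-fold, adjusted p = 0.0196), and 2289 to 2521 with the PGC1a hairpins. The KIF20A call was lost without any 1 control array. The 4 probe sets of MKI67 gave log2 differences from -0.44 to 0.03. Of 20 p53 targets, CDKN1A was higher and TP53I3 and ZMAT3 lower. The CDKN1A call was lost without any 1 control array (adjusted p from 0.136 to 0.202), and that of ZMAT3 without shGFP replicate 2 (0.0798) or shScr replicate 2 (0.0807). Of 37 apoptosis regulators, CASP4 (1.38-fold) and HRK (1.65-fold) were higher and APAF1 and CASP9 (1.38-fold) lower, with 1 to 3 in each direction without 1 control array. CASP4, an inflammatory caspase, read 656 and 659 with shGFP, 477 and 473 with shScr, 448 and 458 with hairpin 65 and 409 and 439 with hairpin 66, with shGFP highest; the CASP9 call was lost without shGFP replicate 1 (adjusted p = 0.0517) or shScr replicate 2 (0.0505).

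Gene families were also read by symbol, taking the letters before the first digit and families of at least 20 measured genes. Over all genes 7.85% were called, 4.40% higher and 3.45% lower. Of 56 families, the matrix metalloproteinases had the highest share called, 18.2% of 22, all 4 higher in shGFP (MMP12, MMP2, MMP1 and MMP8). Of 24 genes named UBE, mostly ubiquitin-conjugating enzymes, 4 were lower (UBE2K, UBE2N, UBE2O and UBE2H) and none higher, 16.7% in all. UBE2K read 2921 and 3144 with shGFP, 4228 and 4520.5 with shScr, 4551 and 4762 with hairpin 65 and 4622 and 4689 with hairpin 66, and UBE2N 6808 and 6551 with shGFP, 8758 and 8662 with shScr, 8280.3 and 8265 with hairpin 65 and 8382 and 8559 with hairpin 66. For both, shGFP was the low group (1.44-fold and 1.3-fold) and shScr lay near the PGC1a hairpins (adjusted p = 0.343 and 0.476 between them). These families were chosen by their share called, which is a description. The fits without 1 control array were not counted by family.

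Of 24 genes named CDK, CDK8, CDK14 and CDK2AP2 were lower and none higher (12.5%, beside 7.85% of all genes). CDK8, a kinase of the Mediator complex, read 358 and 369 with shGFP, 781 and 741 with shScr, 746 and 808 with hairpin 65 and 823 and 713 with hairpin 66; the shGFP arrays were 2.09-fold below shScr (adjusted p = 6.22e-04), and the other 6 arrays lay together. Of 20 genes named ARHGAP, ARHGAP6, ARHGAP19 and ARHGAP29 were higher (15%). Of 23 genes named PDE, mostly phosphodiesterases, PDE4B and PDE3B were higher and PDE4DIP and PDE1C lower (17.4% in all). PDE4B, which degrades cyclic AMP, read 466 and 500.5 with shGFP and 297 and 302 with shScr (1.61-fold, adjusted p = 9.06e-04). It read 336 and 348 with hairpin 65 and 394 and 396 with hairpin 66. TBC genes, whose products act on Rab GTPases, had 3 of 20 called (15%). The largest family, 238 genes named SLC and mostly solute carriers, had 19 higher and 10 lower (12.2%). SLC38A1, an amino acid transporter, was lower in shGFP, at 345 and 335 with shGFP and 536 and 546 with shScr, and 686 to 724 with the PGC1a hairpins.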

How the data were processed

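RNA of A375P cells was labelled with biotin and read in 1 colour on 8 human arrays, 2 for each of 4 hairpins. The deposited values are intensity values on a linear scale, made with RMA per the submitters' processing notes; array images were not used. RMA sets arrays on a common distribution, so an overall shift in RNA per cell would not be seen. The log2 of each value the authors deposited was taken before every test. Of 22277 probe sets, 19070 had 1 gene symbol, 1043 several and 2164 none, and 0 symbols changed against RefSeq GRCh38.p14. Each of 11963 genes was read by the probe set with the highest mean over the 8 arrays, without a filter on signal.

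A limma fit (limma 3.58.1, R 4.3.3) with the 4 hairpins as groups gave every contrast, with 4 residual degrees of freedom and two-sided moderated tests. Adjustment was by the Benjamini-Hochberg method across the 11963 genes, and genes with an adjusted p under 0.05 are the called ones. Fits were tested on simulated data. Members, gene lists and tests were chosen with earlier results of these data known. Named genes are PPARGC1A, the called genes with the 15 largest differences in each direction whose control arrays do not overlap, and up to 3 called members of each list with the smallest p; any other gene was named with its values already seen. Alternatives were run gene by gene for the 116 genes this rule takes, of which 10 have probe sets that differ in sign. The hairpin sequences were not used here. Alternatives were the probe set summary, leaving out s_at and x_at probe sets, a signal filter, 2 normalizations, the variance model, the samples in the fit, a replicate block, thresholds and each array left out.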

Additional observations from a re-analysis of the deposited data

How the results depend on the processing

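The precision rests on 2 arrays a hairpin. Between the controls, 939 genes were called (526 higher and 413 lower in shGFP), and 3312 and 2446 between the PGC1a hairpins and shGFP or shScr. Without s_at and x_at probe sets these were 555 (310 and 245), 1993 and 1379. Leaving out the 40% of genes lowest in mean signal gave 1535 (806 and 729), and a trend and robust variance 1705 (912 and 793) between the controls; the cause was not tested. At 1.5-fold they were 274 (156 and 118), 770 and 486, and at an adjusted p under 0.01 396 (213 and 183), 2023 and 1245. An unmoderated linear model called 344 genes higher. Without 1 array the counts ran from 374 to 847 (200 to 482 higher, 165 to 365 lower), from 2058 to 3092 against shGFP and from 1173 to 2131 against shScr. The PGC1a hairpin mean lay below both controls for 37.3% of the genes higher in shGFP and above both for 58.8% of those lower in it; these were 44.2% and 67.8% at 1.5-fold, 43.2% and 65.0% at an adjusted p under 0.01, and 37.5% to 42.6% and 54.9% to 65.2% without 1 array. Hairpin 65 against 66 gave 0 calls in all settings run, the unmoderated model included. Quantile and cyclic loess normalization, the mean of all probe sets and all probe sets singly kept the count between the controls within 1.5 times. Of the 939 genes, 4 changed sign with the mean of all probe sets, as did 15 of the 664 tested without s_at and x_at probe sets. None of the 939 did with the 2 normalizations or without 1 control array. The other settings leave the log2 difference between the controls as it is, so no sign could change in them. These are the signal filter, the variance model, thresholds, the control arrays alone, the replicate block and leaving out a PGC1a hairpin array. Of 115 called named genes, 75 kept the call in every setting run for them (15 to 17 each), and INHBA (0.01), SMAD6 (-0.19), PLXNA1 (-0.01) and IFI44 (-0.07) reversed without s_at and x_at probe sets.

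The labels do not say if a replicate number marks a shared day or culture. Same-numbered deviations correlated over genes between -0.11 and 0.04, so little shared shift was seen. With the replicate block 782 genes were called between the controls, 440 higher and 342 lower, of which 748 were among the 939.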

Other observations

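Probe sets without exactly 1 gene name were tested apart, among all 22215 probe sets singly. Of 3151 such probe sets, 57 were higher and 47 lower in shGFP than in shScr, 3.30% of them. Over all 22215 probe sets 1235 were called, a higher share. The 3151 probe sets are unnamed here, and their genes were not looked for.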
